A study of Mus musculus with 12 samples.

Results

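The 9 genes Parvb, Aqp3, Slc37a2, Gstm1, Ahnak2, Tmem171, Il34, Ky and Ngef had some of the highest ratios to the vector control in mouse Ba/F3 cells that carried wild-type ETV6 or its double mutant I209S P214L. They were chosen by exactly that measured ratio, so their levels in those cells against the vector control are given as a description, without a test. They are 9 of the 56748 genes in the deposited count table and 9 of the 14794 genes that had enough reads to be tested. Ngef passed the filter on low counts through the 2 groups in which it is high, since it had no read in the other 2.

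Ba/F3 is a mouse haematopoietic line that grows on interleukin-3 (IL-3), and its cell type is labelled as pro-B. All cells carried NRAS G12D, an active RAS oncoprotein, including the controls. On day 0 the cells were sorted into medium that lacked IL-3, and RNA was taken on day 3. The groups were ETV6 I209S P214L-IRES-ZsGreen, ETV6 P214L-IRES-ZsGreen, wild-type ETV6-IRES-ZsGreen (ETV6 WT) and ZsGreen alone, with 3 libraries each. Per the series' design text, P214L gives ETV6 a nuclear export sequence and I209S disrupts it, and the question was whether the double mutant brings back the wild-type pattern of transcripts. Whether replicates came from separate cultures is not stated in the labels, and p-values then measure only the spread between these libraries, which may be technical. Every library comes from the same cell line, so other lines are not covered by the values.

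ETV6 is a transcription factor of the ETS family, whose members bind DNA around a GGAA core, and it is known mainly as a repressor in blood cells. A repressor has to reach the nucleus to act, and germline variants such as P214L that keep it out of the nucleus are linked to low platelets and leukaemia in people. The 9 genes belong to no single known pathway. Parvb, Ngef, Ky and Ahnak2 encode proteins of adhesion sites, the cytoskeleton or the cell cortex, Aqp3, Slc37a2 and Tmem171 encode membrane proteins of which Aqp3 and Slc37a2 are transporters, Gstm1 encodes a detoxifying enzyme and Il34 a secreted cytokine.

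Promoters of 7 of the 9 genes were in the RefSeq promoter table (GRCm38.p6), in 8 windows, and Tmem171 and Il34 had no entry there. All 7 genes had at least 1 GGAA on either strand within 250 bases before the start, as had 93.4% of the 32851 promoters of the table. The longer motif GGAAGT, searched on both strands, was found in 2 of the 7 genes, Ngef and Slc37a2, and in 19.7% of all promoters over the same stretch. The AP-1 motif TGANTCA was in 1, Slc37a2, against 6.75% of all promoters, and the E-box CACGTG in 0, against 6.02%. Below are the 250 bases before the start of 4 genes, read 5′ to 3′ in the direction of the gene, with each GGAA, or TTCC where it lies on the other strand, in capitals. Ngef and Slc37a2 are shown because they hold the longer motif, and Parvb and Ahnak2 because they reached the highest levels.
Ngef, chr1:87573871-87574120, minus strand: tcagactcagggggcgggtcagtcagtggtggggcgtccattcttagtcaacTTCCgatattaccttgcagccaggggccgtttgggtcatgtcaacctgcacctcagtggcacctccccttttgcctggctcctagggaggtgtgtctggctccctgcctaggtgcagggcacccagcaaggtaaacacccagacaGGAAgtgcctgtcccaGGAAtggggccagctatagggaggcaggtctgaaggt
Slc37a2, chr9:37255739-37255988, minus strand: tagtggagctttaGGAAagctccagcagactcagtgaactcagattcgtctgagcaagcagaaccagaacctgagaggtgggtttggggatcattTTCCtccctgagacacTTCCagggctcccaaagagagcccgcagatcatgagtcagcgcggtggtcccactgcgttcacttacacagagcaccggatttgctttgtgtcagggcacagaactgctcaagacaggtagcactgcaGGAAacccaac
Parvb, chr15:84231793-84232042, plus strand: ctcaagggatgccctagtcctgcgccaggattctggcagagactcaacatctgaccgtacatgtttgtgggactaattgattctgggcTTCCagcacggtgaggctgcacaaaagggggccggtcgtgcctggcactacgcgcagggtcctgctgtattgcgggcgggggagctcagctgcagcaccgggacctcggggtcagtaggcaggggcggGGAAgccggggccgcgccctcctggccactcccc
Ahnak2, chr12:112795743-112795992, minus strand: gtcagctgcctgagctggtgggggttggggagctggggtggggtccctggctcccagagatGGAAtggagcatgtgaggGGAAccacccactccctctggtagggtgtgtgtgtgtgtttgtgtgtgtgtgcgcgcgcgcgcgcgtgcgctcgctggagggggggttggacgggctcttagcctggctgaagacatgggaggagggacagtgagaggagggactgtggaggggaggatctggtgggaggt
The Ngef stretch holds 3 GGAA cores, which lie 198, 53 and 37 bases before the start, and those at 198 and 53 are part of the longer motif. The Slc37a2 stretch holds 4, and the Parvb and Ahnak2 stretches 2 each. A match to letters is a description of the sequence and says nothing about binding. These positions are on GRCm38.p6, while the deposited gene positions further on are on mm39, and none was converted.

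The libraries held 14301683 to 18607595 counts. ZsGreen 1 stood apart on the second principal component, at 70.7 against -28.5 to 22.4 for the other 11 libraries. Next highest there were ETV6 WT 1 (22.4) and I209S P214L 1 (21.2). Without ZsGreen 1, the log2 ratios of the 8 genes that had reads in every group lay between 2.80 and 4.44 for I209S P214L over ZsGreen. For ETV6 WT over ZsGreen they lay between 2.72 and 4.02. Etv6 averaged 99.1 CPM (read counts scaled to a common library size with TMM factors) in I209S P214L libraries, 103 CPM in P214L libraries and 109 CPM in ETV6 WT libraries, against 81.7 CPM in ZsGreen libraries, and counts per gene do not tell the construct from the cells' own gene. Nras averaged 77.3, 80.9, 76.5 and 77.9 CPM in the same order of groups. Among markers of the B lineage, Igll1, Rag1, Dntt and Il7r had no read in any library, Ebf1 and Pax5 were at most 0.0898 CPM on average in a group, and the marker sum was almost all Ptprc, the general leukocyte marker CD45. Cd79b and Cd79a, which encode the signalling chains of the B-cell receptor, were present, at group means of 6.93 to 11.6 CPM and 1.07 to 1.72 CPM. The markers of the labelled pro-B type were thus present in part. In bulk libraries, fewer cells with a transcript and less transcript per cell cannot be told apart.

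**Figure D1:**
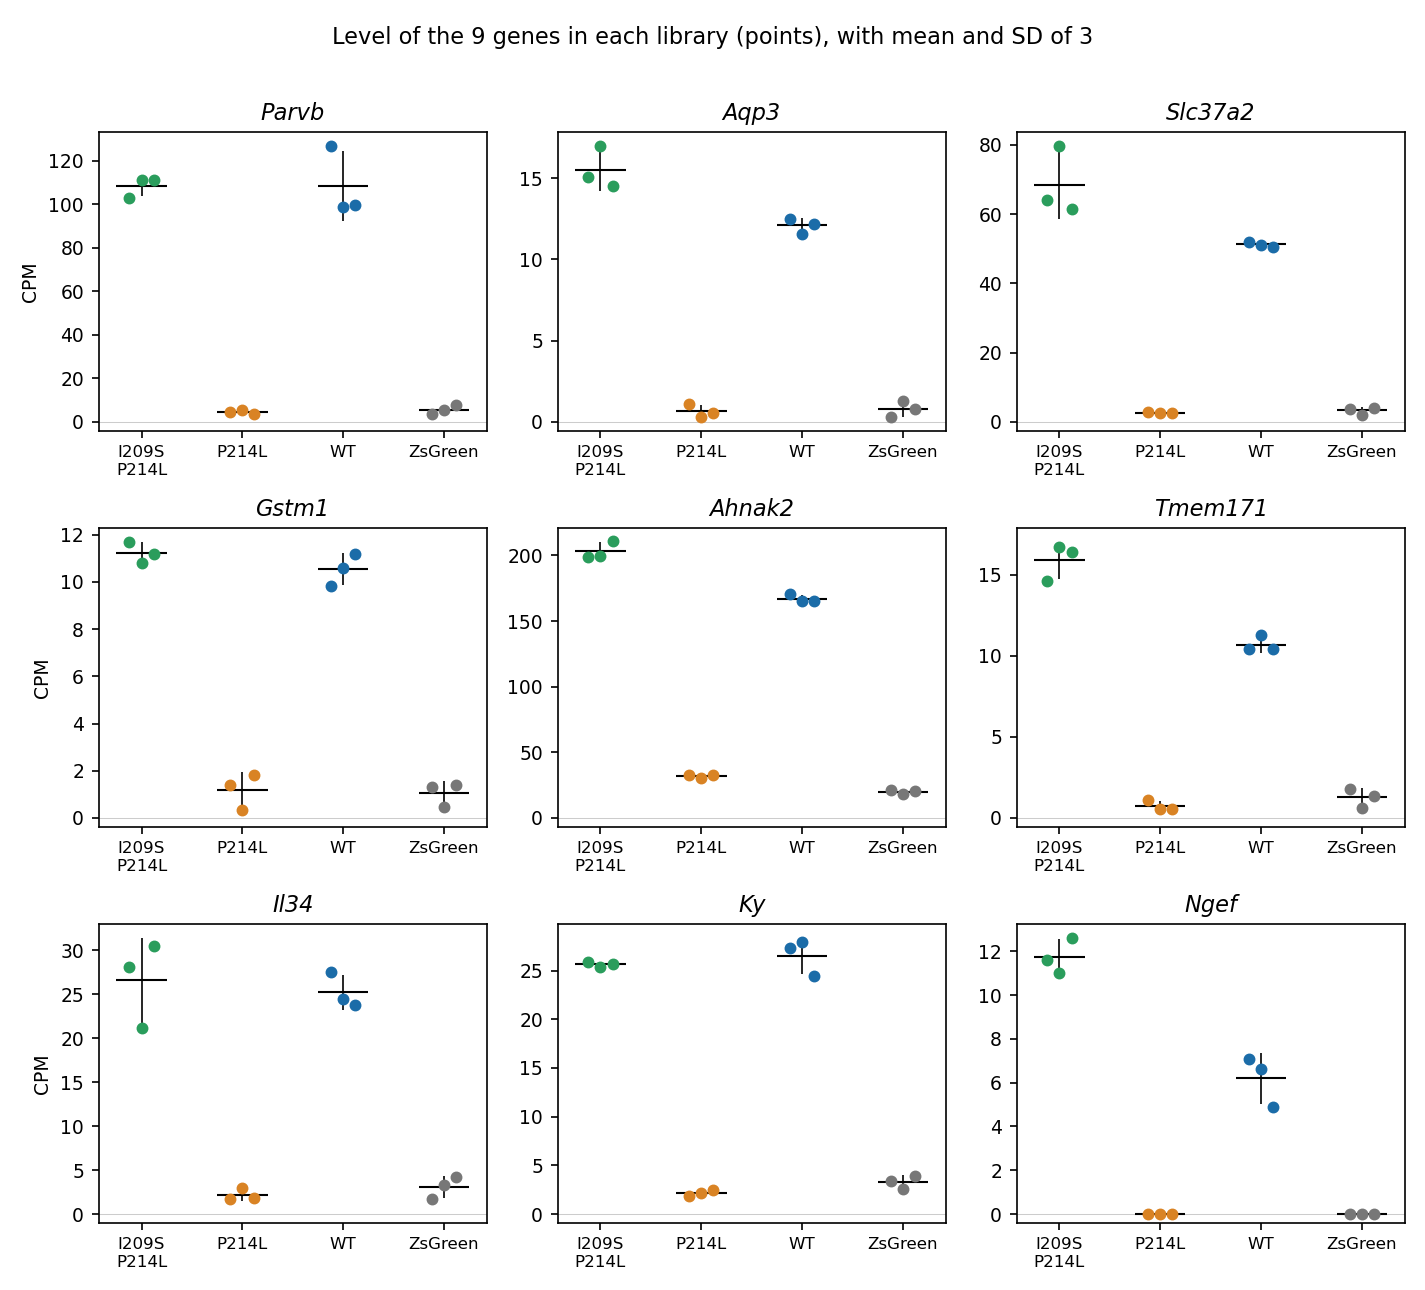
Level of each of the 9 genes in CPM, on a linear axis of its own per panel, in the 3 libraries of ETV6 I209S P214L, P214L, WT and ZsGreen cells; points are libraries, the horizontal bar is the mean and the vertical line the SD. In all 9 panels the I209S P214L and WT libraries lie above every P214L and ZsGreen library, and Ngef is at 0 in the 6 P214L and ZsGreen libraries.

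Parvb encodes beta-parvin, an adaptor that joins integrin-linked kinase to actin at adhesion sites. It had 103, 111 and 111 CPM in I209S P214L libraries and 4.50, 5.32 and 3.60 CPM in P214L libraries, against 127, 98.9 and 99.6 CPM in ETV6 WT libraries and 3.56, 5.46 and 7.70 CPM in ZsGreen libraries. The 6 libraries with I209S P214L or WT were all high and interleaved, and the 6 with P214L or ZsGreen were all low and interleaved. Its mean in ETV6 WT libraries, 109 ± 16.3 CPM, was 19.5 times the ZsGreen mean of 5.57 ± 2.07 CPM (SD, n = 3 each). By FPKM, which counts reads per length and so allows genes to be compared, it was the highest of the 9 in I209S P214L cells (24.4) and in ETV6 WT cells (24.3). It stood above 85.2% of the genes tested in ETV6 WT cells and above 26.2% of them in ZsGreen cells.

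Ngef encodes ephexin-1, a guanine nucleotide exchange factor that acts below Eph receptors in neurons. Its counts were 216, 158 and 205 in I209S P214L libraries and 0 in each P214L library, against 116, 116 and 92 in ETV6 WT libraries and 0 in each ZsGreen library. It was the one member with an empty background, and no I209S P214L library overlapped with an ETV6 WT library. A count of 0 over 3 libraries allows up to 0.0643 CPM in P214L cells and 0.0608 CPM in ZsGreen cells (3 counts over the group, counting error only). With that floor, Ngef was at least 193-fold higher in I209S P214L cells and at least 102-fold higher in ETV6 WT cells than in ZsGreen cells. Its level stayed modest, at 2.99 and 1.57 FPKM in I209S P214L and ETV6 WT cells, the lowest of the 9 in both.

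Ahnak2 encodes a very large scaffold protein with a PDZ domain, related to AHNAK. It had 199, 199.6 and 211 CPM in I209S P214L libraries and 32.9, 30.6 and 32.6 CPM in P214L libraries, against 170.4, 165 and 165 CPM in ETV6 WT libraries and 21.2, 18.5 and 20.6 CPM in ZsGreen libraries. The 4 groups did not overlap in any pair, in the order I209S P214L, WT, P214L and ZsGreen. The ETV6 WT mean was 8.31 times the ZsGreen mean. Ahnak2 had the most reads of the 9, and its spread was small, with an SD of 1.85% of the mean in ETV6 WT libraries.

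Ky encodes the kyphoscoliosis peptidase, which is known in skeletal muscle, where it binds filamin C. It had 25.9, 25.4 and 25.7 CPM in I209S P214L libraries and 1.87, 2.19 and 2.48 CPM in P214L libraries, against 27.3, 27.9 and 24.4 CPM in ETV6 WT libraries and 3.39, 2.60 and 3.91 CPM in ZsGreen libraries. The high libraries interleaved, while each P214L library was below each ZsGreen library. Of 6 skeletal muscle markers, Myh1, Myh4, Tnnt3 and Myog had no read, and the summed level, nearly all of it Ckm, was 4.62 to 7.32 CPM in I209S P214L, 9.87 to 12.5 CPM in P214L, 4.33 to 6.27 CPM in ETV6 WT and 7.79 to 8.92 CPM in ZsGreen libraries, lower in the groups where Ky was high.

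Aqp3 encodes a channel for water and glycerol in the plasma membrane. It had 15.1, 17.0 and 14.5 CPM in I209S P214L libraries and 1.11, 0.295 and 0.523 CPM in P214L libraries, against 12.5, 11.6 and 12.2 CPM in ETV6 WT libraries and 0.282, 1.27 and 0.782 CPM in ZsGreen libraries. The P214L and ZsGreen libraries held 5 to 19 counts each and overlapped, so that the size of their ratio is poorly fixed. Every I209S P214L library was above every ETV6 WT library.

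Slc37a2 encodes a sugar-phosphate exchanger of the endoplasmic reticulum that is abundant in macrophages. It had 64.2, 79.8 and 61.4 CPM in I209S P214L libraries and 2.84, 2.66 and 2.42 CPM in P214L libraries, against 52.0, 51.2 and 50.6 CPM in ETV6 WT libraries and 3.78, 2.13 and 4.03 CPM in ZsGreen libraries. The I209S P214L libraries were all above the ETV6 WT libraries, with I209S P214L 2 the highest. Slc37a2 overlaps the pseudogene Gm10177 on the opposite strand, and the strand setting of the counting is not known. Gm10177 itself averaged 8.28, 9.82, 8.65 and 8.23 CPM in I209S P214L, P214L, ETV6 WT and ZsGreen libraries.

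Tmem171 encodes a predicted membrane protein. It had 14.6, 16.7 and 16.4 CPM in I209S P214L libraries and 1.11, 0.532 and 0.523 CPM in P214L libraries, against 10.4, 11.3 and 10.4 CPM in ETV6 WT libraries and 1.81, 0.600 and 1.38 CPM in ZsGreen libraries. The I209S P214L libraries were again all above the ETV6 WT libraries, and P214L overlapped with ZsGreen.

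Gstm1 encodes a mu-class glutathione S-transferase, which joins glutathione to reactive compounds. It had 11.7, 10.8 and 11.2 CPM in I209S P214L libraries and 1.39, 0.354 and 1.83 CPM in P214L libraries, against 9.83, 10.6 and 11.2 CPM in ETV6 WT libraries and 1.30, 0.466 and 1.38 CPM in ZsGreen libraries. Both pairs, I209S P214L with WT and P214L with ZsGreen, overlapped. Of the 50-base stretches of its transcript, 23.1% also occurred in another gene, mostly Gstm2-ps1 and Gstm3, so its level is less certain than that of the others. Gstm3 itself had 2 counts over the 12 libraries.

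Il34 encodes interleukin-34, a ligand of the receptor CSF1R on macrophages. It had 28.1, 21.2 and 30.5 CPM in I209S P214L libraries and 1.73, 3.01 and 1.83 CPM in P214L libraries, against 27.5, 24.4 and 23.8 CPM in ETV6 WT libraries and 1.75, 3.33 and 4.21 CPM in ZsGreen libraries. The spread was wide in I209S P214L cells, where the lowest library was below and the highest above all ETV6 WT libraries. The ETV6 WT mean was 8.15 times the ZsGreen mean. By FPKM, Il34 was the third of the 9 in I209S P214L and ETV6 WT cells and the second in P214L and ZsGreen cells.

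Against ZsGreen, the 9 genes were higher without overlap of libraries in I209S P214L cells (24.4% of all genes tested were) and in ETV6 WT cells (24.2%). These counts follow from how the genes were chosen. Over the 8 with reads in every group, the ratio ran from 7.78 to 20.7 for I209S P214L and from 8.04 to 19.5 for ETV6 WT. In ETV6 WT cells 8 of them were between rank 2 and rank 11 of 2209 protein-coding genes called higher, with a mean of at least 5 CPM and without overlap. The lowest, Ky, had a log2 fold change of 3.00, and the next 3 below it were Lgmn (3.00), Muc6 (2.92) and Padi2 (2.87). C3ar1 (4.02) and Lilrb4a (3.11) lay within the same range, and Angptl2 (4.42) was at rank 1 above it, and these 3 are not among the 9. Ngef averaged under 5 CPM over the ETV6 WT and ZsGreen libraries, so it had no rank there. It was the first of 2303 in I209S P214L cells, with a value (10.60) that rests on a ZsGreen count of 0. Ranks 2 to 6 there were Hba-x (10.59), Hbb-bs (5.61), Wnt10b (5.40), Angptl2 (5.14) and Mcpt4 (5.06), none of them among the 9. Ky was at rank 21 (2.95) above Acot11 (2.81), and further genes outside the 9 lay between Mcpt4 and Ky.

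The low groups were compared with each other in a contrast that did not choose the genes, although the ZsGreen libraries entered the choice. A choice by the ratio to ZsGreen favours genes with low values in these libraries, which can tilt P214L over ZsGreen upward. ETV6 P214L against ZsGreen asks whether the mutant leaves the genes at the level of the vector control. By edgeR's quasi-likelihood test with Benjamini-Hochberg adjustment over all genes, 1 of the 8 genes with reads in these groups was called higher, against 3.47% of all genes tested, and 0 were called lower, against 1.61%. Ngef had no read in either group and could not be called. At an unadjusted p under 0.05, 2 were lower, and DESeq2 called 0 lower. Ahnak2 was the gene called, at 32.0 ± 1.25 CPM in P214L cells and 20.1 ± 1.44 CPM in ZsGreen cells (log2 fold change 0.67 ± 0.08 SE, adjusted p = 3.03e-05, higher in 3 of 3 libraries). It was called in each of the 18 alternatives, with log2 fold changes between 0.61 and 0.70, and without ZsGreen 1 the value was 0.70. The rise was small beside the 3.34 and 3.05 of I209S P214L and ETV6 WT over the same ZsGreen libraries.

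Ky pointed the other way without passing the test, at 2.18 ± 0.307 CPM in P214L cells and 3.30 ± 0.660 CPM in ZsGreen cells (-0.60 ± 0.19, adjusted p = 0.0801, lower in 3 of 3 libraries). Its call depended on ZsGreen 2, the lowest control library: without it the log2 fold change was -0.74 with an adjusted p of 0.0343. Tmem171 had a log2 fold change of -0.84 with an adjusted p of 0.244. The 95% intervals of the remaining 5 genes with reads all held 0. The interval was -0.78 to 0.17 for Parvb, -0.79 to 0.10 for Slc37a2 and -1.09 to 0.14 for Il34. For Aqp3 it was -1.26 to 0.72 and for Gstm1 -0.79 to 1.07, so shifts within those wide intervals were not excluded for these genes. Of the 8 genes, 2 had a positive and 6 a negative log2 fold change, with a median over all genes tested of 0.01. Those of Aqp3 and Gstm1 changed sign without ZsGreen 2 and ran from -0.90 to 0.25 and from -0.33 to 0.59 over the alternatives.

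ETV6 I209S P214L against ETV6 WT asks whether the double mutant matches the wild type. Both groups entered the choice of the genes, so the values are given as a description and nothing is read from the shares over all genes. By edgeR's quasi-likelihood test 0 of the 9 were called, as were 0.0338% of all genes tested, and DESeq2 called 1, Ahnak2 (log2 fold change 0.29, adjusted p = 0.0148). At an unadjusted p under 0.05, 4 were higher in I209S P214L cells, and the libraries of 5 lay above those of ETV6 WT without overlap, which held for 3.95% of all genes tested. These 5 were Aqp3, Slc37a2, Ahnak2, Tmem171 and Ngef. Ngef averaged 11.7 ± 0.791 CPM in I209S P214L cells and 6.20 ± 1.15 CPM in ETV6 WT cells, a ratio of 1.89 (log2 fold change 0.92, 95% interval 0.35 to 1.49). Its rank in the choice came from the I209S P214L level itself. Tmem171 averaged 15.9 ± 1.12 and 10.7 ± 0.526 CPM in the same groups (log2 fold change 0.57, 95% interval 0.04 to 1.10). Slc37a2 averaged 68.5 ± 9.95 and 51.3 ± 0.662 CPM (0.42, interval 0.13 to 0.70). Ahnak2 averaged 203 ± 6.67 and 167 ± 3.09 CPM (0.28, interval 0.14 to 0.42). Aqp3 averaged 15.5 ± 1.31 and 12.1 ± 0.478 CPM, and its interval of -0.23 to 0.96 held 0.

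The other 4 genes overlapped between I209S P214L and ETV6 WT. Parvb had an interval of -0.32 to 0.30, Ky of -0.34 to 0.25, Il34 of -0.37 to 0.53 and Gstm1 of -0.59 to 0.77 on the log2 scale. The levels of I209S P214L cells were thus within 0.968 to 1.49 times those of ETV6 WT cells for the 8 genes other than Ngef. That edgeR called none does not show that the levels are equal.

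**Figure D2:**
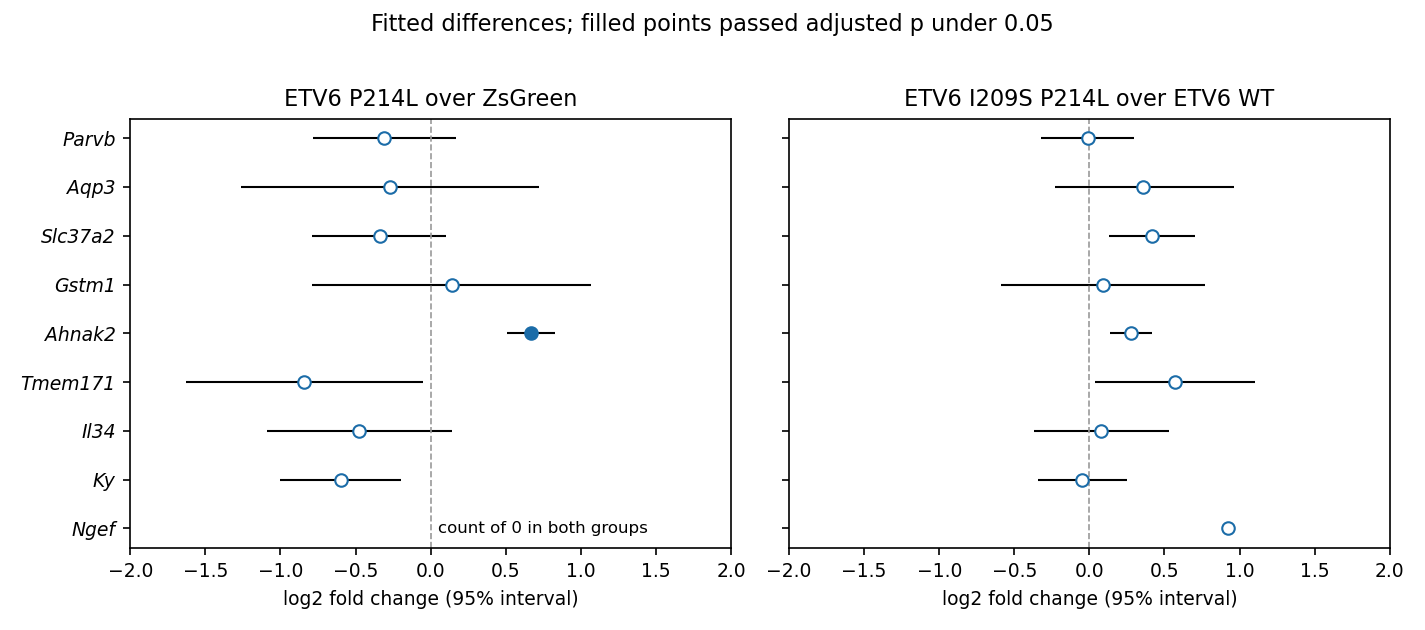
Log2 fold change with its 95% interval for each of the 9 genes in ETV6 P214L over ZsGreen (left) and in ETV6 I209S P214L over ETV6 WT (right); a filled point passed an adjusted p under 0.05. Ahnak2 is the one filled point, at 0.67 on the left. On the right both groups entered the choice of the genes, and on the left the ZsGreen libraries did. There the intervals of Slc37a2, Ahnak2 and Tmem171 lie above 0, as does that of Ngef (0.35 to 1.49), which is not drawn.

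Between the mutants and against the wild type, all 9 were lower in P214L than in ETV6 WT libraries without overlap (22.9% of all genes tested were) and all 9 higher in I209S P214L than in P214L libraries (23.4%). The high group of each contrast entered the choice of the genes, so no test is given. The P214L level of the 8 genes was 5.21 times (Ahnak2) to 24.3 times (Parvb) lower than that of ETV6 WT, and Ngef was at least 96.3-fold lower. I209S P214L was 6.34 to 25.9 times higher than P214L, with Ngef at least 182-fold higher. The comparisons with ZsGreen share the 3 control libraries, so they are not independent of each other.

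By FPKM, the order of the genes in ETV6 WT cells was Parvb (24.3), Ahnak2 (14.5), Il34 (12.7), Slc37a2 (7.63), Gstm1 (7.07), Tmem171 (6.67), Aqp3 (6.53), Ky (4.46) and Ngef (1.57), where Gstm1 overlapped with Tmem171 and Tmem171 with Aqp3, and the other neighbours in order did not overlap. In ZsGreen cells Ahnak2 led with 1.76, before Il34 (1.57) and Parvb (1.25), and the libraries of neighbours overlapped down to Aqp3 (0.422). Slc37a2, the fourth in ETV6 WT cells, was the seventh in ZsGreen cells.

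Across the 12 libraries, the 9 profiles followed each other on the log2 CPM scale, with Pearson's r between 0.897 (Gstm1 with Il34) and 0.992 (Slc37a2 with Ngef), as a description of libraries that share their groups and their choice. The genes outside the 9 whose profiles were most like their mean were Lgmn, a lysosomal protease (r = 0.998), Angptl2, a secreted protein (0.996), Ctnnb1, which encodes beta-catenin (0.996), Uhrf2, a ubiquitin ligase (0.994), and Ptk2b, a kinase of adhesion signalling (0.993), out of 9243 genes compared. Ctnnb1 averaged 1905 CPM in I209S P214L cells and 625 CPM in P214L cells, against 1673 CPM in ETV6 WT cells and 626 CPM in ZsGreen cells. Lgmn averaged 897 and 88.9 CPM, against 817 and 102 CPM, in those groups. These correlations are over 12 libraries in 4 groups that share a gap between high and low groups, and they say nothing of the size of the change. Angptl2 averaged 176 CPM in I209S P214L cells and 107 CPM in ETV6 WT cells and was called higher there (0.72 ± 0.10, adjusted p = 0.0141). That call was lost without ETV6 WT 2, ETV6 WT 3, I209S P214L 2 or I209S P214L 3, with log2 fold changes of 0.67 to 0.72 and adjusted p from 0.0918 to 0.158.

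The relatives and partners of the 9 genes were taken from 9 lists by gene family and role, 138 genes in all, of which 84 could be tested and 25 had no read in any library. In I209S P214L against ZsGreen 25 of the 84 were called higher and 18 lower, where 20.8% and 20.7% of all genes were. In P214L against ZsGreen 13 were higher and 0 lower, where 3.47% and 1.61% of all genes were, with 7 lower at an unadjusted p under 0.05 and 1 lower by DESeq2. The lists were written with earlier results of these data known, so these counts beside the shares are a description only. In ETV6 WT against ZsGreen 26 were higher and 17 lower, where 19.5% and 18.2% of all genes were. Without P214L 1 the 13 were 6, and without ETV6 WT 2 the 17 were 10. The median log2 fold change of the 84 was 0.07, 0.07 and 0.14 in the 3 comparisons, beside 0.03, 0.01 and 0.03 over all genes tested. Between I209S P214L and ETV6 WT, edgeR called 0 in either direction, with 5 higher and 5 lower at an unadjusted p under 0.05 and 2 higher by DESeq2.

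The closest tested relatives of Parvb and Slc37a2 fell where those genes were high. Parvg, the parvin of blood cells, fell to 162 CPM in I209S P214L cells and 182 CPM in ETV6 WT cells, against 242 CPM in ZsGreen cells (-0.58 ± 0.07, adjusted p = 2.82e-06, and -0.41 ± 0.07, adjusted p = 0.000148). Parva, the remaining parvin, had no read. In its list of 11 tested genes of the integrin-linked kinase complex, 0 were higher and 4 lower in I209S P214L cells, 0 were called in P214L cells, and 3 were higher and 3 lower in ETV6 WT cells, with medians of -0.09, -0.13 and -0.04. Tln1, which encodes the integrin activator talin, fell by 0.49 and 0.36 on the log2 scale in I209S P214L and ETV6 WT cells. In P214L cells DESeq2 called it lower (-0.24, adjusted p = 0.00548) and edgeR did not.

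The 3 tested relatives of Slc37a2 fell in I209S P214L and ETV6 WT cells. Slc37a1 fell by 0.35 in I209S P214L and by 0.35 in ETV6 WT cells, Slc37a3 by 0.48 and 0.40, and Slc37a4, the glucose-6-phosphate transporter of the endoplasmic reticulum, by 0.47 and 0.48 on the log2 scale. The fall of Slc37a1 in ETV6 WT cells was not called without ETV6 WT 2 (-0.29, adjusted p = 0.075). Of the 10 tested genes of the SLC37 and glucose-6-phosphate list, 2 were higher and 5 lower in I209S P214L cells, 2 higher and 0 lower in P214L cells, and 3 higher and 6 lower in ETV6 WT cells, with medians of -0.31, 0.05 and -0.31. G6pdx, the entry enzyme of the pentose phosphate pathway, rose by 0.81 in I209S P214L and 0.67 in ETV6 WT cells. Hk3, a hexokinase of myeloid cells, fell by 1.06 in I209S P214L and by 0.77 in ETV6 WT cells.

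Aqp9, a glycerol channel, had more reads than Aqp3. It rose in P214L cells to 68.7 CPM, against 45.6 CPM in ZsGreen cells (0.59 ± 0.12, edgeR adjusted p = 0.00553). In I209S P214L cells it fell to 34.9 CPM (-0.38 ± 0.12, edgeR adjusted p = 0.0163). It had 40.7 CPM in ETV6 WT cells, which did not pass the test. The rise was not called without P214L 1 (0.50, adjusted p = 0.0526), nor the fall without I209S P214L 2 (-0.29, adjusted p = 0.0773) or I209S P214L 3 (-0.36, adjusted p = 0.0523). Of the 8 tested aquaporins and glycerol enzymes, 2 were higher and 3 lower in I209S P214L cells, 2 higher and 0 lower in P214L cells, and 2 higher and 1 lower in ETV6 WT cells, with medians of -0.16, 0.05 and -0.09. Gk, glycerol kinase, fell by 0.75 in I209S P214L and by 0.62 in ETV6 WT cells, while Pnpla2, the lipase that starts the breakdown of triglycerides to fatty acids and glycerol, rose by 0.48 and 0.43.

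The relatives of Gstm1 and Ahnak2 were mixed or higher. Ahnak rose like Ahnak2 at a far lower level, to 4.78 CPM in I209S P214L and 2.71 CPM in ETV6 WT cells, against 0.492 CPM in ZsGreen cells (3.24 ± 0.59, adjusted p = 0.000237, and 2.42 ± 0.59, adjusted p = 0.00307). Annexins bind membranes with calcium, and Anxa2, Anxa4, Anxa5 and Anxa11 rose in both, Anxa2 by 0.87 in I209S P214L and 0.77 in ETV6 WT cells. Anxa1 fell in both and rose in P214L cells, at 7.74, 36.4 and 7.83 CPM in I209S P214L, P214L and ETV6 WT cells against 13.0 CPM in ZsGreen cells, each called. Of the 11 genes of that list, 6 were higher and 1 lower in I209S P214L cells, 1 higher and 0 lower in P214L cells, and 5 higher and 1 lower in ETV6 WT cells, with medians of 0.26, 0.06 and 0.23.

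Of the 14 tested glutathione S-transferases, 5 were higher and 2 lower in I209S P214L cells (median 0.51), 1 higher and 0 lower in P214L cells (0.01), and 2 higher and 3 lower in ETV6 WT cells (0.28). Gsta2 had no read in ZsGreen cells and averaged 5.37 CPM in I209S P214L, 0.0231 CPM in P214L and 2.90 CPM in ETV6 WT cells, at least 88.3-fold and at least 47.7-fold higher in I209S P214L and ETV6 WT than in ZsGreen cells. Gstm2, beside Gstm1 in the genome, did not pass the test at 1.38, 0.611, 0.987 and 0.355 CPM in I209S P214L, P214L, ETV6 WT and ZsGreen cells, and did without ZsGreen 3 for I209S P214L (3.15, adjusted p = 0.0145) and ETV6 WT (2.66, adjusted p = 0.0371). Of 14 genes of glutathione synthesis and the NRF2 stress response, 8 were higher and 0 lower in I209S P214L cells (median 0.44), 5 and 0 in P214L cells (0.10), and 8 and 0 in ETV6 WT cells (0.32), and G6pdx is in this list too. Sqstm1, the autophagy receptor p62, rose to 1145 CPM in I209S P214L, 298 CPM in P214L and 950.3 CPM in ETV6 WT cells, against 228 CPM in ZsGreen cells, and its rise in P214L cells was not called without P214L 1 (0.33, adjusted p = 0.0565). Slc7a11, the cystine importer, rose by 1.74 in I209S P214L, 1.82 in P214L and 1.64 in ETV6 WT cells. Gstm1 itself was at 1.19 CPM in P214L cells and 1.05 CPM in ZsGreen cells.

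**Figure D3:**
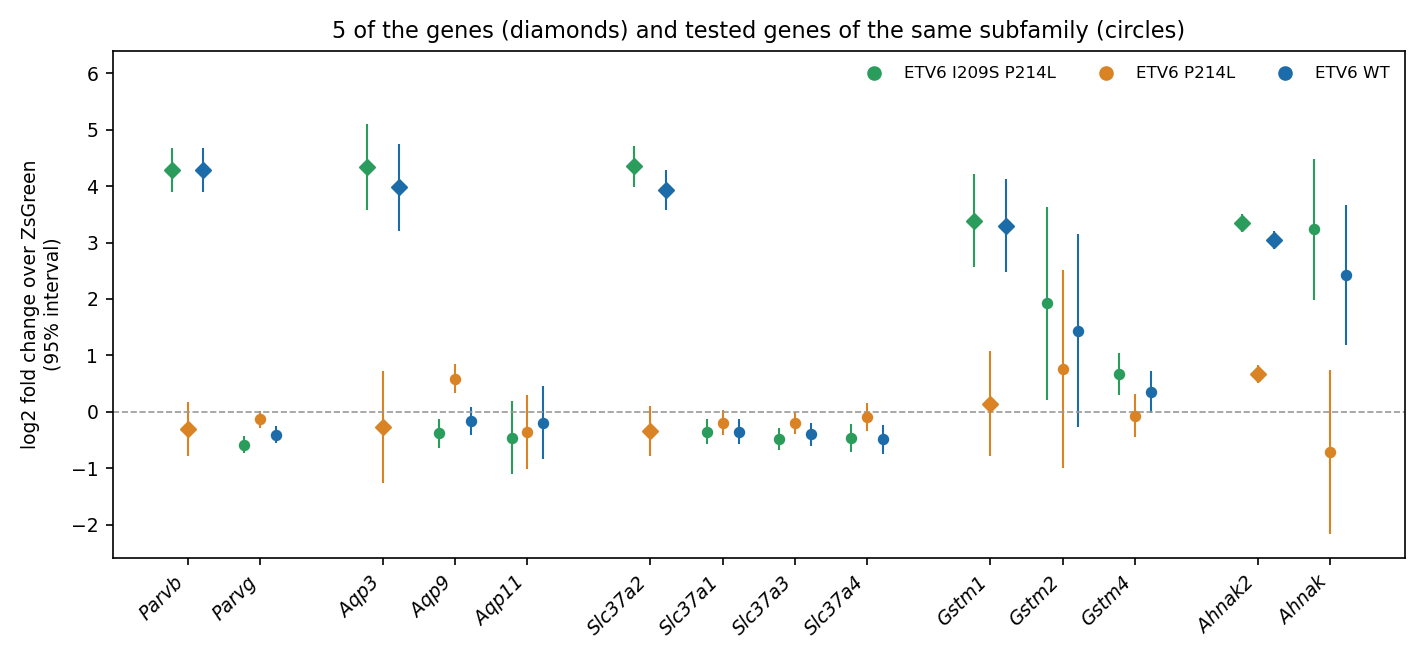
Log2 fold change over ZsGreen, with its 95% interval, in ETV6 I209S P214L, P214L and WT cells for 5 of the 9 genes (diamonds). Circles are tested relatives from the same gene family, of which the glutathione S-transferases are of the mu class only. Parvg and Slc37a1, Slc37a3 and Slc37a4 lie below 0 in I209S P214L and WT cells where Parvb and Slc37a2 lie near 4, and Ahnak (3.24 and 2.42) lies high like Ahnak2.

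Partners of the remaining genes were few. Csf1r, which encodes the receptor of IL-34, averaged 0.799, 0.388, 0.733 and 0.280 CPM in I209S P214L, P214L, ETV6 WT and ZsGreen cells and was not called. Csf1, the other ligand of that receptor, was highest in P214L cells, at 16.7, 44.0 and 20.2 CPM in I209S P214L, P214L and ETV6 WT cells against 19.8 CPM in ZsGreen cells, called in P214L cells (1.15 ± 0.14, adjusted p = 8.75e-05). Of the 5 tested genes of the IL-34 list, 1 was higher and 1 lower in I209S P214L cells, 3 higher and 0 lower in P214L cells, and 1 higher and 1 lower in ETV6 WT cells, with medians of -0.08, 0.49 and 0.16. Of 26 genes of ephexins, Eph receptors and ephrins, 8 could be tested. Ephb2 rose by 1.96 in I209S P214L and by 1.83 in ETV6 WT cells, at a low level of 4.59 and 4.17 CPM against 1.16 CPM in ZsGreen cells, and the list had 2 higher and 1 lower in I209S P214L cells and 3 higher and 1 lower in ETV6 WT cells (medians -0.01 and 0.05), with 0 in P214L cells. Flnc, which binds the Ky protein, was not called at 0.889 CPM in I209S P214L and 1.39 CPM in ETV6 WT cells, against 0.752 CPM in ZsGreen cells.

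Position in the genome was not used to choose the genes. On mm39, as the deposited table gives it, they lie on 8 chromosomes: Ngef on chromosome 1 (87404556 to 87501592), Gstm1 on 3 (107919571 to 107925289), Aqp3 on 4 (41092722 to 41098183), Il34 on 8 (111468461 to 111532556), Slc37a2 and Ky on 9 (37138881 to 37167034 and 102382949 to 102423438), Ahnak2 on 12 (112738628 to 112766277), Tmem171 on 13 (98822743 to 98831342) and Parvb on 15 (84116244 to 84199889). The nearest tested protein-coding gene on each side, 18 in all, lay 0.4 to 1254 kb away. Of these, 8 were called higher and 5 lower in I209S P214L against ZsGreen, and 7 higher and 5 lower in ETV6 WT against ZsGreen, with median log2 fold changes of 0.32 and 0.27. Over all genes tested, 20.8% were higher and 20.7% lower in I209S P214L cells, and 19.5% higher and 18.2% lower in ETV6 WT cells. The 18 are all protein-coding, while these shares cover every kind of gene. Among the 41 tested genes of any kind within 100 kb of a member, 11 were higher and 6 lower in I209S P214L against ZsGreen. In ETV6 WT against ZsGreen 9 of the 41 were higher and 5 lower, and the medians were 0.10 and 0.08. In P214L against ZsGreen edgeR called 0 of the 18, with 0 higher and 3 lower at an unadjusted p under 0.05 and 1 lower by DESeq2. In I209S P214L against ETV6 WT it called 0 too, with 2 lower at an unadjusted p under 0.05 and 0 by DESeq2. In ETV6 WT against ZsGreen the neighbours ranged from -0.80 to 1.61. That they lay below the members follows from the choice of the members for the largest rises, so nothing is read from it.

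Clba1, 6.3 kb from Ahnak2, had the largest rise among the neighbours called, to 54.3 CPM in I209S P214L and 49.0 CPM in ETV6 WT cells, against 16.1 CPM in ZsGreen cells (1.76 ± 0.14, adjusted p = 2.1e-08, and 1.61 ± 0.14, adjusted p = 7.95e-08). Pld4, 3.2 kb away on the other side of Ahnak2, fell to 24.7 and 30.0 CPM in those cells, against 52.0 CPM. Cep63, 38.3 kb from Ky, rose by 0.86 and 1.07, and Tmem218, 2.9 kb from Slc37a2, by 0.98 and 0.87 in I209S P214L and ETV6 WT cells. Samm50 and Parvg, 14.8 and 8.3 kb to either side of Parvb, both fell. Nfx1, 66.7 kb from Aqp3, passed the test in neither comparison.

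**Figure D4:**
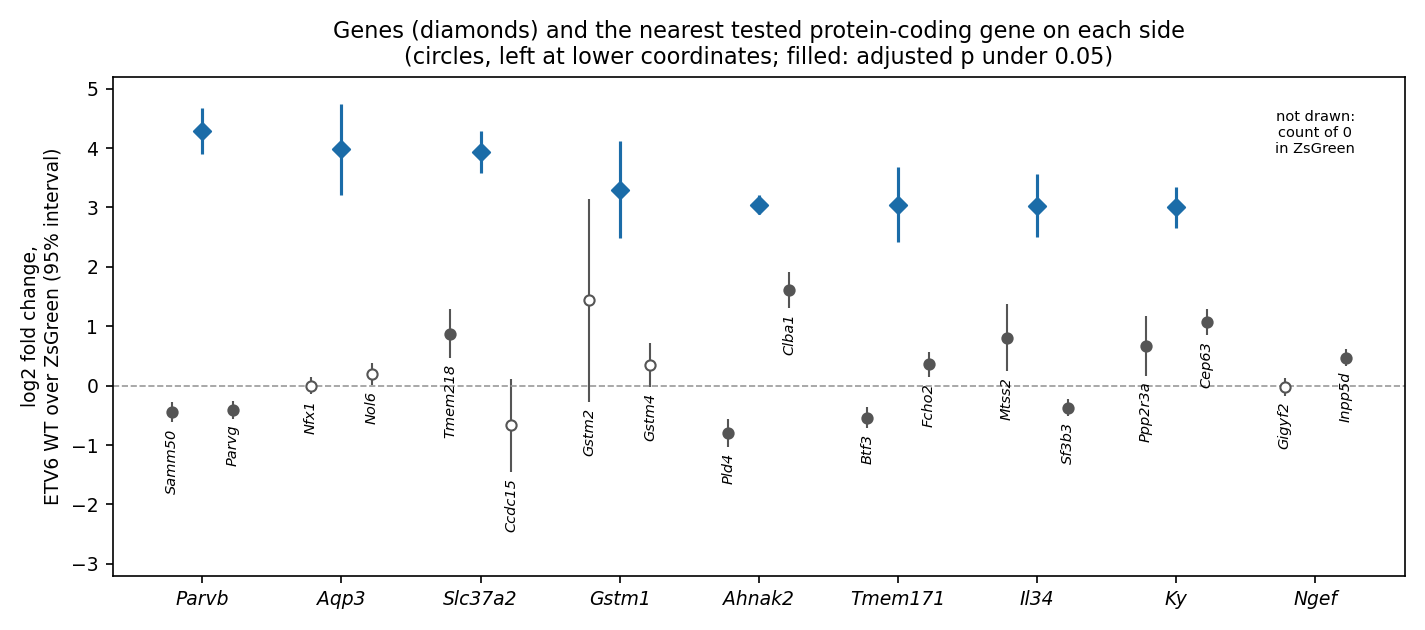
Log2 fold change of ETV6 WT over ZsGreen, with its 95% interval, for 8 of the 9 genes (diamonds) and the nearest tested protein-coding gene on each side (circles, filled where the adjusted p was under 0.05). The members, chosen for the largest rises, lie between 3.00 and 4.29 and their neighbours between -0.80 (Pld4) and 1.61 (Clba1), a gap that follows from that choice. Ngef is not drawn because its ZsGreen count is 0.

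Slc37a2 is abundant in macrophages and Il34 encodes a ligand that acts on them, so the macrophage markers are given beside these genes. The summed level of 6 markers was 99.9 to 138 CPM in I209S P214L, 67.7 to 89.0 CPM in P214L, 131 to 145 CPM in ETV6 WT and 32.8 to 37.4 CPM in ZsGreen libraries, most of it Adgre1 (109, 52.0, 127 and 19.9 CPM on average). Cd68 averaged 7.80, 21.8, 7.71 and 12.5 CPM in the same groups, Mrc1 was at most 0.0601 CPM on average and Marco had no read. Fcgr1 averaged 0.412, 1.65, 0.843 and 1.86 CPM in those groups, so Cd68 and Fcgr1 were lowest in the groups where Adgre1 was highest. Csf1r went with Adgre1, at 0.799, 0.388, 0.733 and 0.280 CPM, on low counts and without being called. The markers thus did not move together. Whether macrophage-type expression has a part in the levels of the 9 genes was not tested. Of 6 fibroblast, 6 epithelial and 6 neuronal markers, the summed level was at most 0.508, 0.131 and 0.307 CPM in any library.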

How the data were processed

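RNA-seq read counts were analysed for 9 genes in 12 libraries of Ba/F3 cells, 3 for each of 4 constructs. The deposited table gives raw counts and FPKM values per gene and library, made by the authors. Per the submitters' processing notes, HISAT2 2.0.5, featureCounts 1.5.0-p3 and mm39 were used; options, annotation release and strand setting are not given in the sources used here. Per the labels, mRNA was selected by poly-T beads, and library preparation is described with and without strand marking, so strandedness is unknown and overlapping genes on opposite strands may share counts. FPKM, deposited by the authors, was used only to order genes by level.

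Counts were fitted with edgeR 4.0.16 (filterByExpr over the 4 groups, TMM, glmQLFit and glmQLFTest on all 12 libraries, R 4.3.3), with Benjamini-Hochberg adjustment over the 14794 genes tested and a call at an adjusted p under 0.05. Standard errors are the log2 fold change divided by the root of the F statistic. The script was tested on simulated counts. CPM are counts scaled by TMM library sizes, and group values are mean ± SD of 3 libraries. A count of 0 was set to a floor of 3 counts over the group. The floors cover counting error alone, and the 95% intervals of log2 fold changes come from the fit.

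The members, the lists of relatives and the marker lists were chosen with earlier results of these data known. Named beside the members were relatives and partners by family, the nearest tested protein-coding gene on each side, overlapping genes, genes ranked beside the members, and the 5 genes whose log2 CPM profile (prior count 2, mean of at least 5 CPM) correlated best with the mean of the members. Alternatives were DESeq2 1.42.0, RLE size factors, no filter, the replicate number as a block, only the groups compared, ETV6 WT 1 and I209S P214L 1 both left out, and each library left out. Shared stretches of transcripts were counted in windows of 50 bases. Promoters came from RefSeq (GRCm38.p6). Protein sequences were not used here, and results on some listed genes are not reported here.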

Additional observations from a re-analysis of the deposited data

How the results depend on the processing

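The calls on the 9 genes changed for Ahnak2 and Ky. Ahnak2 between I209S P214L and ETV6 WT was called by DESeq2, so 1 of the 9 was. Ky between P214L and ZsGreen was called without ZsGreen 2, so the count there ran from 1 to 2 over the libraries left out. No called value changed sign, while 12 uncalled values near 0 did. These were for Aqp3, Gstm1, Parvb and Ngef in P214L against ZsGreen and for Parvb and Il34 in I209S P214L against ETV6 WT. Values of the last pair lay between -0.08 and 0.22 over these alternatives. The sign of Ngef has no meaning there, since it had no read in either group and its value was 0.00 in each alternative. Of 476 alternative values of the summary counts 435 stayed within 1.5 times the count and 41 did not. Related genes lower in P214L against ZsGreen numbered 1 in place of 0 with RLE size factors, no filter, DESeq2, the replicate block, both first libraries left out, or only the groups compared, and 0 to 1 with a library left out. Of 18 same-numbered pairs of libraries, 2 had deviations from their group means with r over 0.1 (range -0.061 to 0.528). Both joined I209S P214L with ETV6 WT, at 0.528 for the libraries numbered 1 and 0.254 for those numbered 3. So the numbers cannot be taken as unpaired between these groups. The replicate block changed no call on the 9 genes. Genes lower in P214L against ZsGreen, 238 in all, were 476 by DESeq2, 467 with ETV6 WT 1 and I209S P214L 1 left out and 485 with only the 2 groups, and 74 to 338 with a library left out. Genes higher there, 513, were 295 to 622, and related genes higher, 13, were 6 to 14. Genes differing between I209S P214L and ETV6 WT were 14 higher and 24 lower with no filter, 13 higher and 9 lower by DESeq2, and 1 lower with only the 2 groups, in place of 2 and 3, and 0 to 3 and 1 to 3 with a library left out. Related genes higher there were 2 with no filter or by DESeq2 and 0 to 1 with a library left out. Related genes lower in ETV6 WT against ZsGreen, 17, were 10 to 19. The cause of these shifts was not tested. Low counts limit Aqp3, Gstm1 and Tmem171 in P214L and ZsGreen libraries, with 5 to 32 counts each.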
